A study of Mus musculus with 32 samples.

Results

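A set of 10 genes of neutrophil granules and their precursors was followed through a macrophage culture in which Trex1 was deleted. The members were Mpo, Elane, Prtn3, Ctsg, Ltf, Camp, Ngp, Lcn2, S100a8 and S100a9, chosen by name as rows of the deposited count table, which held 54281 genes. All 10 were found. Bone marrow derived macrophages (BMDMs), grown from mouse bone marrow in medium conditioned by L929 cells, carried either 2 loxP-flanked Trex1 alleles (Trex1 FL/FL) or 1 flanked and 1 wild-type allele (Trex1 WT/FL). Both genotypes also carried R26 CreERT2, a Cre recombinase that is expressed broadly and becomes active when 4-hydroxytamoxifen (4-OHT) binds it. Cells of each genotype were left untreated or exposed to 2 µg/ml 4-OHT for 22 h, and total RNA was taken daily from day 1 to day 4 once the drug was removed. This gave 16 groups of 2 libraries, 32 libraries in all. In WT/FL controls the drug can remove the flanked allele and leaves the wild-type one. Animal age was not given in the sources used here.

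Neutrophils make their granules in order while they mature in the marrow. Promyelocytes make primary (azurophilic) granules, which hold myeloperoxidase and the serine proteases neutrophil elastase, proteinase 3 and cathepsin G. Myelocytes then make secondary (specific) granules, which hold lactoferrin, the cathelicidin precursor, neutrophilic granule protein and lipocalin 2. S100A8 and S100A9 form calprotectin, an abundant protein of the neutrophil cytosol that macrophages and monocytes can make too. Lipocalin 2 binds bacterial siderophores and is also made by macrophages and epithelial cells under inflammatory stimuli. A marrow culture driven towards macrophages starts from cells that include granulocyte and macrophage progenitors.

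Library totals ran from 35120505 to 63760884 counts. The 2 libraries of each group differed beyond sampling noise, with a chi-square per degree of freedom between 9.02 and 47.4. The deleted gene itself was at 0 counts in both 4-OHT FL/FL libraries on days 1, 3 and 4 and at 14 and 9 counts on day 2. Trex1 in 4-OHT WT/FL cells lay at 13.6 ± 2 CPM on day 1 and 74.2 ± 7.41 CPM on day 3, against 30.3 ± 2.45 and 135 ± 8.84 CPM in untreated WT/FL cells (SD, n = 2, where CPM is the usual library-size-scaled count, on TMM-scaled library sizes). Macrophage markers were abundant, as the label has it: the summed level of 13 macrophage genes was between 16300 and 18700 CPM on day 1 and between 35400 and 39700 CPM on day 4. The granule genes were rare beside these. All 10 members together had a summed level of between 7.12 and 28.1 CPM by raw library total, with a median of 13.8. No member exceeded 7.99 CPM in any library, so the values below describe traces in macrophage cultures. In bulk RNA, fewer cells that make a transcript and less of it per cell cannot be told apart.

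Places are given on the mouse genome (GRCm39, the build the authors used, GENCODE annotation). Mpo lies at chr11:87684407-87695239 on the plus strand and Ctsg at chr14:56337338-56340031 on the minus strand. Prtn3 (chr10:79710310-79719008) and Elane (chr10:79722081-79724051) are neighbours on the plus strand. Lcn2 lies at chr2:32274645-32278264 (minus strand). S100a8 (chr3:90567118-90578128, plus strand) and S100a9 (chr3:90599931-90603071, minus strand) share a cluster of S100 genes. Camp (chr9:109676442-109678685, minus strand), Ngp (chr9:110248815-110252086, plus strand) and Ltf (chr9:110848339-110871835, plus strand) lie on the chromosome of the deleted gene, 0.788, 1.36 and 1.96 Mb from Trex1 at chr9:108887001-108888802. Of the 31-base words in the transcripts of each member, 8 members shared none with another gene, Mpo shared 0.463% and Lcn2 0.0748%. Mpo overlaps the antisense gene Gm11505 and Prtn3 overlaps Plppr3 on the other strand, and whether the counting used strand was not given in the sources used here.

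The sequence before the start of each primary granule gene and of Lcn2, the 1 member called between arms of the same day, is shown from the RefSeq promoter table (GRCm38.p6, all 10 members matched), leaving out bases inside an annotated transcript of the same gene. Capitals mark GAGGAA on either strand, a core letter pattern of ETS factors such as PU.1, in the first 4 sequences, and GGGNNNNTCC on either strand, a κB-type pattern, in Lcn2. The Mpo stretch runs over chr11:87793534-87793580 (plus strand), Elane over chr10:79886062-79886246 (plus), Prtn3 over chr10:79879417-79879613 (plus), Ctsg over chr14:56102575-56102824 (minus) and Lcn2 over chr2:32387798-32387850 (minus).
Mpo: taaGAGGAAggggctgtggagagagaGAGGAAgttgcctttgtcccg
Elane: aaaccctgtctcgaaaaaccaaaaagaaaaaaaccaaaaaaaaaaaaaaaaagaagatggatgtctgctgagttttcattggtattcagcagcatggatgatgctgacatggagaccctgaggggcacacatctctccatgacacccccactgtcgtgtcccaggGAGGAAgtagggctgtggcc
Prtn3: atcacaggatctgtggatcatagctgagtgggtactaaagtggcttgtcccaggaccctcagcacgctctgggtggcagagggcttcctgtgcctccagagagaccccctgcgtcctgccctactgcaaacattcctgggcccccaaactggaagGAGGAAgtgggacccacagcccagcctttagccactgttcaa
Ctsg: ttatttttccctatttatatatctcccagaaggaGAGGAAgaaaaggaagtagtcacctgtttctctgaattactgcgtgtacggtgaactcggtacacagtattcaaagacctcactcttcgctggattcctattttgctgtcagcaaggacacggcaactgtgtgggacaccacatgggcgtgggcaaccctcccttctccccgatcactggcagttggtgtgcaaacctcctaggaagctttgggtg
Lcn2: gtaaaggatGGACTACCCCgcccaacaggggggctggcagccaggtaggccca
Each primary granule promoter held GAGGAA, and 7 of the 10 members did, against 23.3% of 32851 promoters over the same 250 bases. TTGCNNAA, a C/EBP-type pattern, was in 4 of 10 members (Ltf, Ngp, Lcn2 and S100a9) and in 9.56% of promoters. The κB-type pattern was in 2 of 10 (Mpo and Lcn2) and in 16.5% of promoters. Some matches counted here lie outside the stretches shown. These are the κB-type match of Mpo (first base -116 from the start) and the GAGGAA (-20) and C/EBP-type (-216) matches of Lcn2. The patterns describe letters and not binding.

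Primary granule transcripts were present at trace levels on day 1, and their summed level was lower in each library of day 4 than in any library of day 1. The summed level of Mpo, Elane, Prtn3 and Ctsg had a median of 2.25 CPM over the 8 libraries of day 1 (1.08 to 3.99), 0.613 on day 2 (0.146 to 1.42), 0.185 on day 3 (0.0223 to 0.555) and 0.113 on day 4 (0.0277 to 0.379). The highest sums of day 4 were in the second-listed libraries of untreated WT/FL (0.379 CPM) and untreated FL/FL (0.349 CPM). Of the 10 members, those called lower on day 4 than on day 1 (edgeR quasi-likelihood test, adjusted p under 0.01 with a log2 fold change beyond 1.5 either way) were 2 in 4-OHT FL/FL, 3 in 4-OHT WT/FL, 3 in untreated FL/FL and 2 in untreated WT/FL cells. Over all 15257 genes tested, 8.9%, 7.74%, 7.6% and 7.16% were called lower in the same comparisons. All members passed the filter on low counts, but Ctsg reached its limit of 0.223 CPM in 4 libraries and Elane in 6, of which 4 and 5 were of day 1. Ctsg thus entered the test only, and Elane mainly, because they were high there. The counts above hold Ctsg and Elane in 4-OHT WT/FL cells, and Ctsg in untreated FL/FL and untreated WT/FL cells. The calls and p-values of these 2 genes, above and below, therefore support nothing further.

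Mpo, the heme enzyme that makes hypochlorous acid in azurophilic granules, gave the clearest fall. The counts of Mpo on day 1 were 74 and 63 in 4-OHT FL/FL, 107 and 101 in 4-OHT WT/FL, 26 and 66 in untreated FL/FL and 85 and 26 in untreated WT/FL libraries. On day 2 they were 22 and 10, 18 and 10, 5 and 0, and 11 and 46 in the same order. On day 4 the whole set of 8 libraries held 2 counts, 1 in a 4-OHT FL/FL and 1 in a 4-OHT WT/FL library, and 6 libraries were at 0. No library of day 4 reached any library of day 1. Mpo was 97.1-fold higher on day 1 than on day 4 in 4-OHT FL/FL cells (95% exact interval 17.1 to 3860, counting error only) and 181-fold higher in 4-OHT WT/FL cells (32.1 to 7180). With no count left on day 4, Mpo was at least 23.1-fold higher on day 1 in untreated FL/FL and at least 38.2-fold higher in untreated WT/FL cells (floor of 3 counts over the group). The fall was called in all 4 arms, with adjusted p between 4.72e-05 and 0.000249. The main steps were called from day 1 to day 2 in untreated FL/FL (adjusted p = 0.00483) and from day 2 to day 3 in untreated WT/FL cells (adjusted p = 0.00342), where 1.81% of all genes were called lower and 5.66% were called in either direction. The first step was no longer called without library 2 of untreated FL/FL on day 1 or day 2 (adjusted p = 0.0525 and 0.0665). The second was lost without library 2 of untreated WT/FL on day 2 (0.0882) or either library of day 3 (0.0127 and 0.0464).

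The 3 serine proteases had lower day 1 medians than Mpo and lower medians on day 4 than on day 1, but the median of Prtn3 did not reach 0. Ctsg, cathepsin G, lay between 3 and 23 counts in the 8 libraries of day 1 (median 12) and between 2 and 8 on day 2 (median 5.5). It was at 0 in 6 of 8 libraries on day 3 and in all 8 on day 4. Against that floor Ctsg was at least 4.49-fold higher on day 1 in 4-OHT FL/FL, at least 7.25-fold in 4-OHT WT/FL, at least 5.27-fold in untreated FL/FL and at least 10.7-fold in untreated WT/FL cells. The fall was called in the last 3 of these arms (adjusted p = 0.00441, 0.0091 and 0.00196) and not in 4-OHT FL/FL cells (adjusted p = 0.0117). Each of those 3 calls was lost when single libraries were left out: every one of the 4 in 4-OHT WT/FL (adjusted p 0.0113 to 0.0421), library 1 of day 1 or either library of day 4 in untreated FL/FL (0.116, 0.0735 and 0.0425) and the same 3 in untreated WT/FL (0.0203, 0.0304 and 0.0175).

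Elane, neutrophil elastase, had 5 to 16 counts on day 1 (median 10.5), 0 to 4 on day 2 and a median of 0 on days 3 and 4. In untreated FL/FL cells 2 libraries stood apart, the second-listed ones of day 3 and day 4, with 9 and 5 counts, while the first-listed libraries of both days were at 0. Elane was at least 7.25-fold higher on day 1 than on day 4 in 4-OHT WT/FL cells, the only arm called (adjusted p = 0.0097). That call was lost without any 1 of its 4 libraries, with adjusted p between 0.0164 and 0.0718.

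Prtn3, proteinase 3, was the primary granule gene that persisted longest. Its median was 19.5 counts on day 1 (14 to 54), and 6.5, 6.5 and 6 counts on days 2, 3 and 4, with 1, 1 and 2 libraries at 0. In 4-OHT FL/FL cells the counts went from 20 and 17 on day 1 to 7 and 3, then 3 and 9, and 0 and 0 on day 4, at least 8.74-fold higher on day 1 (called, adjusted p = 0.00256). That call was lost without library 1 or library 2 of day 4 (adjusted p = 0.0259 and 0.0224). In untreated FL/FL cells it went from 14 and 19 to 2 and 0 and then back to 1 and 11, and 6 and 7. The other 3 arms kept Prtn3 counts on day 4, and their falls were not called (adjusted p between 0.0183 and 0.476).

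**Figure D1:**
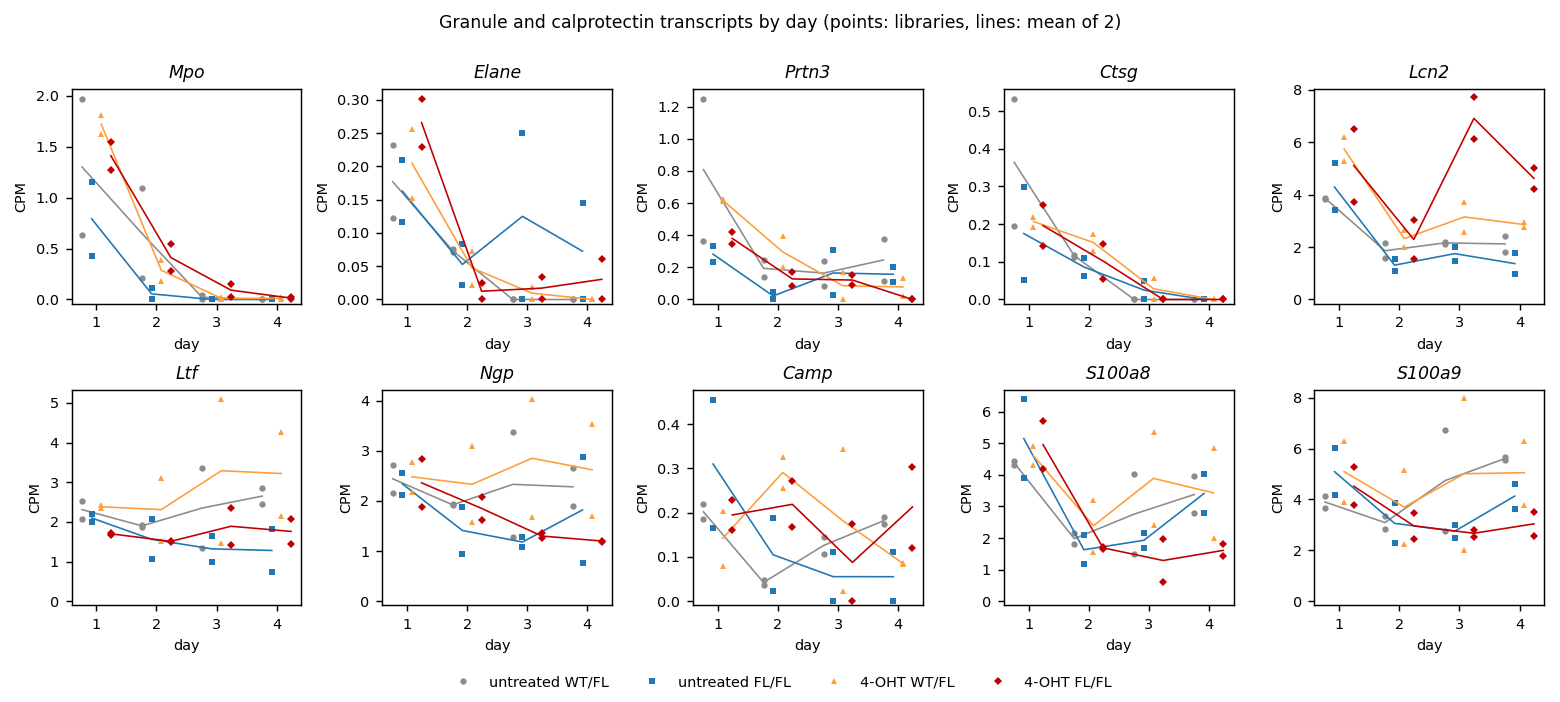
CPM of each member (vertical axis, linear, own scale per gene) by day (horizontal axis), with 1 point per library and lines through the mean of the 2 libraries of a group. Mpo, Elane, Prtn3 and Ctsg stay below 2 CPM in every library, while Lcn2 in 4-OHT FL/FL cells climbs back to 6.11 and 7.71 CPM on day 3.

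Of the secondary granule transcripts, Ltf, Ngp and Camp were not called lower over time. Ltf, lactoferrin, had a median of 2.15 CPM on day 1 (1.67 to 2.53), 1.7 on day 2 (1.06 to 3.11), 1.56 on day 3 (1 to 5.1) and 2.12 on day 4 (0.739 to 4.27). Ngp, a cystatin-related granule protein, had medians of 2.37, 1.89, 1.32 and 1.79 CPM. The ratio of Ltf to Ngp counts had a median of 1 over 32 libraries and a range of 0.61 to 1.74. By day its median was 0.909, 0.986, 1.09 and 1.2 on days 1 to 4. Camp, the cathelicidin precursor, stayed at a few counts per library, from 0 to 26. None of the 3 was called between day 1 and day 4 in any arm (smallest adjusted p = 0.105, Camp in untreated FL/FL cells). The 95% intervals for Ltf ran from -1.10 to 1.21 on the log2 scale in 4-OHT FL/FL and from -0.64 to 1.52 in 4-OHT WT/FL cells, so smaller changes were not detectable at this spread.

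S100a8 was lower on day 2 than on day 1 in each arm, without a call by edgeR. S100a8, the smaller partner of calprotectin, had a median of 4.38 CPM on day 1 (3.91 to 6.39), 1.77 on day 2 (1.17 to 3.2), 2.06 on day 3 (0.614 to 5.37) and 2.79 on day 4 (1.42 to 4.84), and no library of day 2 reached the lowest of day 1. The day 2 to day 1 difference of S100a8 was -1.55 ± 0.558 in 4-OHT FL/FL and -1.66 ± 0.55 in untreated FL/FL cells (log2 fold change ± SE, adjusted p = 0.0267 and 0.0181), which missed the call by edgeR. DESeq2 (-1.58 and -1.69, adjusted p = 0.00352 and 0.00175) and edgeR without the filter on low counts (adjusted p = 7.85e-09 and 4.18e-10) put both past the limits. Without the filter the 4-OHT FL/FL value was -1.56, so its far smaller p came from a smaller estimated spread at nearly the same fold. In 4-OHT WT/FL and untreated WT/FL cells it was -0.96 ± 0.533 and -1.15 ± 0.546 (adjusted p = 0.154 and 0.0961). The medians over 4 arms hide that S100a8 in 4-OHT FL/FL cells stayed near its day 2 level, with means of 4.96, 1.69, 1.29 and 1.61 CPM on days 1 to 4. Its day 4 to day 1 difference there was -1.62 ± 0.564 (edgeR adjusted p = 0.0177, not called), past the limits by DESeq2 (-1.64, adjusted p = 0.00203) and without the filter (adjusted p = 1.65e-09). In 4-OHT WT/FL, untreated FL/FL and untreated WT/FL cells it was -0.42, -0.60 and -0.36 (adjusted p = 0.508, 0.338 and 0.575). The change of the genotype difference from day 1 to day 4 under 4-OHT was tested directly. By edgeR 0 of 10 members were called, beside 326 of 15257 genes, and 0 had an unadjusted p below 0.05. For S100a8 that change was -1.19 by DESeq2 (adjusted p = 0.248), so a difference between these 2 arms was not established. S100a9 moved less, from a median of 4.16 CPM on day 1 to 3.09, 2.77 and 4.21 CPM. The ratio of S100a9 to S100a8 counts therefore had a median of 0.926 on day 1 (0.847 to 1.28) and 1.72 on day 2 (1.32 to 2.12), and the 2 ranges did not overlap. On day 3 it was 1.48 (0.843 to 4.14), the high value coming from library 1 of 4-OHT FL/FL, which held 21 counts of S100a8 beside 87 of S100a9.

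Lcn2 was the 1 member called between arms of the same day. On day 3 it lay at 6.11 and 7.71 CPM (209 and 451 counts) in 4-OHT FL/FL cells, against 1.48 and 2.02 CPM in untreated FL/FL, 3.71 and 2.59 CPM in 4-OHT WT/FL and 2.11 and 2.2 CPM in untreated WT/FL cells. Both Trex1-deleted libraries exceeded all 6 others of that day. On day 4 the levels were 4.21 and 5.03 CPM in 4-OHT FL/FL cells, 0.961 and 1.77 in untreated FL/FL, 2.77 and 2.96 in 4-OHT WT/FL and 1.83 and 2.42 in untreated WT/FL cells, with the same separation. The labels do not say that the 2 libraries of a group came from separate animals or cultures, so p-values measure the spread between these libraries, which may be technical.

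In FL/FL cells Lcn2 was higher with 4-OHT than without by 1.99 ± 0.326 on day 3 and 1.79 ± 0.336 on day 4 (log2 fold change ± SE, adjusted p = 4.43e-05 and 0.000151). These were the only calls among the 10 members in that comparison, where 1.67% and 3.43% of all genes were called on the 2 days. The day 4 call was lost without library 1 of untreated FL/FL (log2 fold change 1.38, adjusted p = 0.0129). On day 1 the difference was 0.25 (adjusted p = 0.916) and on day 2 it was 0.8 (adjusted p = 0.122), where edgeR and DESeq2 called 0 of 10 members on each day, beside 0.00655% and 1.03% of all genes, and 0 and 2 members had an unadjusted p below 0.05. DESeq2 gave no adjusted p for Elane, Prtn3, Ctsg and Camp on day 2. The rise came between days 2 and 3, from 1.56 and 3.02 CPM to 6.11 and 7.71 CPM, a log2 fold change of 1.6 ± 0.319 (adjusted p = 0.000188) in a step where 5.07% of genes were called. Without library 1 of day 2 or library 2 of day 3 it was no longer called (log2 fold changes 1.19 and 1.42).

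The same step in the other arms was 0.45 in 4-OHT WT/FL, 0.41 in untreated FL/FL and 0.22 in untreated WT/FL cells, with 0 members called in the first 2 (edgeR; 1 and 0 at an unadjusted p below 0.05, DESeq2 0) and Mpo alone in the third, beside 5.74%, 5.74% and 5.66% of all genes. Before it, the day 2 to day 1 log2 fold change of Lcn2 was -1.16, -1.31, -1.71 and -1.06 in 4-OHT FL/FL, 4-OHT WT/FL, untreated FL/FL and untreated WT/FL cells (adjusted p = 0.00333, 0.00103, 0.000101 and 0.00788). It passed the fold limit in untreated FL/FL cells alone, and not there without library 2 of day 1 (-1.37) or library 1 of day 2 (-1.47). In these steps 2.35%, 2.06%, 1.81% and 1.85% of all genes were called lower, and 0, 0, 2 and 0 members were. Where edgeR called 0, unadjusted p was below 0.05 for 3, 2 and 2 members, and DESeq2 called 1, 0 and 0. In untreated FL/FL cells Lcn2 remained lower on day 4 than on day 1 (-1.68 ± 0.331, adjusted p = 8.11e-05, but -1.35 or -1.28 and not called without library 2 of day 1 or library 1 of day 4). In 4-OHT FL/FL cells it was back near the start (-0.15 ± 0.307, 95% interval -0.78 to 0.48).

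**Figure D2:**
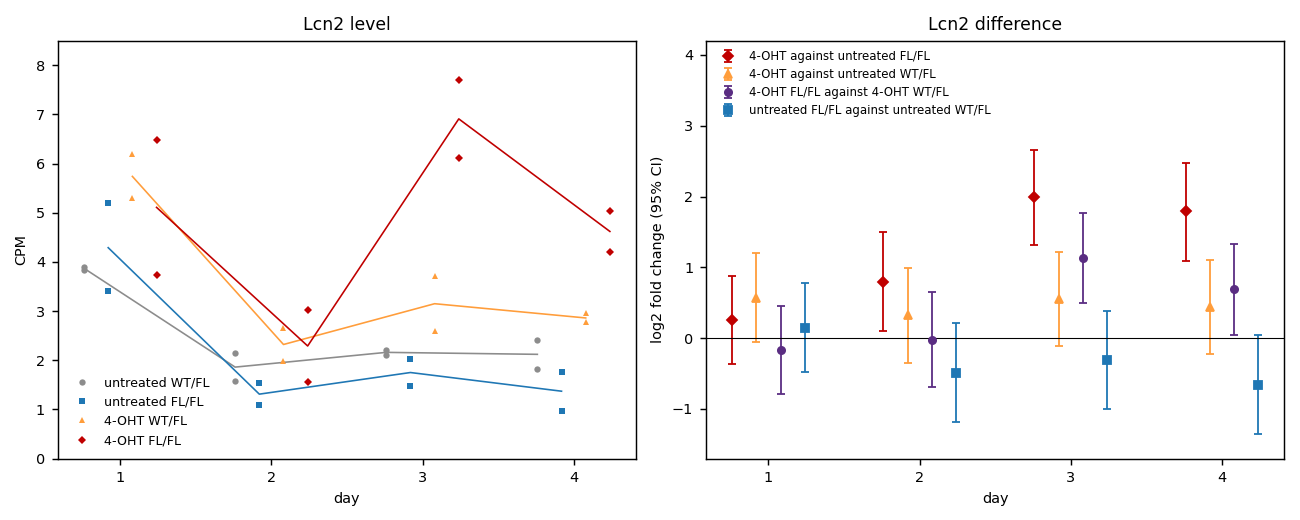
Left, Lcn2 in CPM by day with 1 point per library and lines through the mean of 2. Right, log2 fold changes with 95% intervals for 4 comparisons by day: the 4-OHT difference in FL/FL cells is 1.99 on day 3 and 1.79 on day 4, and the interval of the same difference in WT/FL cells includes 0 on each day.

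Whether 4-OHT acted differently in the 2 genotypes was tested as an interaction. For Lcn2 it was 1.44 ± 0.454 on day 3 and 1.34 ± 0.464 on day 4 (log2, adjusted p = 0.047 and 0.0487), below the limits for a call, and -0.32 and 0.47 on days 1 and 2 (adjusted p = 1 and 0.723). By edgeR no member passed on any day (0.00655%, 0.531%, 0.544% and 2.25% of all genes did), and 0, 1, 2 and 1 members had an unadjusted p below 0.05 on days 1 to 4. DESeq2 called none either, but gave no adjusted p for Elane, Ctsg and Camp on days 2 to 4 or for Prtn3 on day 4. Without single libraries the day 3 interaction ranged from 1.21 to 1.73 with adjusted p from 0.0517 to 0.181, and the day 4 value from 0.94 to 1.82 with adjusted p from 0.0157 to 0.267. In WT/FL cells 4-OHT itself moved Lcn2 by 0.57, 0.32, 0.55 and 0.44 on days 1 to 4 (95% intervals -0.06 to 1.2, -0.35 to 0.99, -0.11 to 1.21 and -0.22 to 1.11). No member was called there by edgeR or DESeq2, beside 0%, 0.0131%, 0.0524% and 0.0131% of all genes, and 1 member, Camp on day 2, had an unadjusted p below 0.05 by edgeR. DESeq2 gave no adjusted p there for Elane on days 2 to 4 or for Ctsg on day 4.

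The genotypes under the drug were compared as 4-OHT FL/FL against 4-OHT WT/FL, where Trex1 was reduced in the controls too. No member was called on any day by edgeR or by DESeq2, while 0.0131%, 0.583%, 0.872% and 2.98% of all genes were called on days 1 to 4. DESeq2 gave no adjusted p for Elane, Ctsg and Camp on days 2 to 4 or for Prtn3 on days 2 and 3, so it could not call these. At an unadjusted p below 0.05 by edgeR there were 0, 0, 2 and 2 members: Lcn2 and S100a8 on day 3, Prtn3 and Lcn2 on day 4. Lcn2 was higher by 1.13 ± 0.308 on day 3 (adjusted p = 0.00947, short of the fold limit) and by 0.69 ± 0.313 on day 4 (adjusted p = 0.103), with both Trex1-deleted libraries above both controls on each day. Leaving out single libraries gave 0.9 to 1.42 on day 3, with adjusted p from 0.0193 to 0.13.

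S100a8, Ltf and Ngp had the opposite sign. S100a8 was at 0.614 and 1.97 CPM in 4-OHT FL/FL and at 5.37 and 2.41 CPM in 4-OHT WT/FL cells on day 3, a log2 fold change of -1.53 ± 0.56 (adjusted p = 0.0661). It was called when no filter on low counts was applied (adjusted p = 7.99e-08). The S100a8 fold was -1.53 there too, so the smaller p reflects a smaller estimated spread and not a larger difference. Without single libraries the S100a8 value of the main fit ranged from -2.66 to -0.84. Ngp differed by -1.13 on both day 3 and day 4 (adjusted p = 0.18 and 0.148) and Ltf by -0.79 and -0.87 (adjusted p = 0.356 and 0.256). Library 1 of 4-OHT WT/FL was the highest of its day for each of these genes on both days. For Ltf the sign on day 3 turned when it was left out, with single-library values from -1.41 to 0.38. Without 4-OHT, Ltf and Ngp had the same sign, with Ltf at -0.85 and -1.09 and Ngp at -0.99 and -0.36 in FL/FL against WT/FL on days 3 and 4 (unadjusted p between 0.0655 and 0.527). S100a8 differed by -0.52 and -0.01 there (unadjusted p = 0.364 and 0.991). The interaction on days 3 and 4 was 0.06 and 0.22 for Ltf (adjusted p = 0.996 and 0.92), -0.15 and -0.77 for Ngp (0.962 and 0.616) and -1.01 and -1.09 for S100a8 (0.533 and 0.426). S100a9 differed between the genotypes by -0.92 and -0.74 with 4-OHT (adjusted p = 0.282 and 0.347) and by -0.79 and -0.45 without it (unadjusted p = 0.162 and 0.407).

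**Figure D3:**
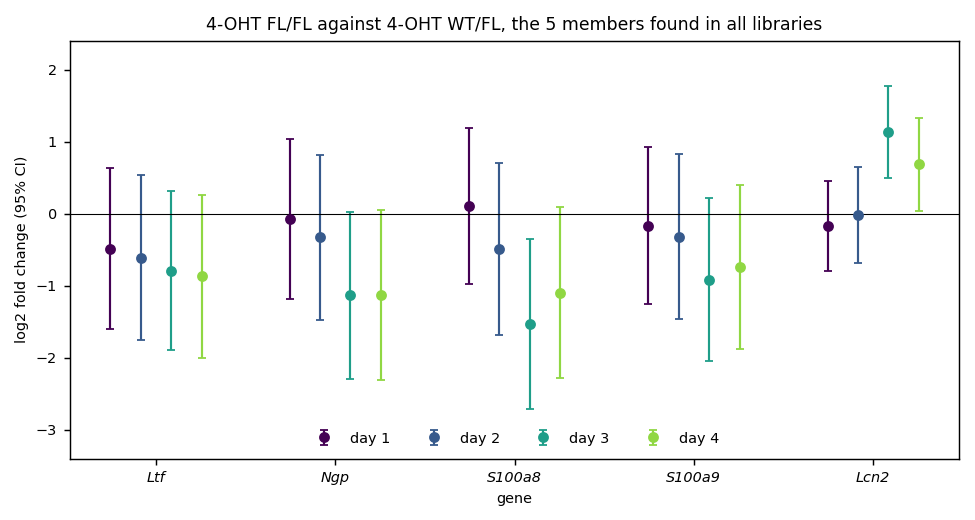
Log2 fold change (vertical axis) with 95% interval of the 5 members found in all 32 libraries, 4-OHT FL/FL against 4-OHT WT/FL, with 4 points per gene for days 1 to 4. Lcn2 lies above 0 on days 3 and 4 (1.13 and 0.69), and S100a8 at -1.53 on day 3 is the lowest point.

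For the primary granule genes no genotype difference was called by edgeR, or by DESeq2 where it gave an adjusted p. On day 2 Mpo differed by -3.50 between untreated FL/FL and untreated WT/FL cells (unadjusted p = 0.00366, adjusted p = 1 by edgeR and by DESeq2), on the 5 and 0 against 11 and 46 counts given above. It was called by edgeR without the filter on low counts (adjusted p = 0.00258), at the same fold and a smaller estimated spread. The interaction for Mpo on that day was 4.04 (edgeR adjusted p = 0.108, DESeq2 0.0741), also called without the filter (4.02, adjusted p = 0.00319). On day 3 Mpo held 1 and 9 counts in 4-OHT FL/FL, 0 and 1 in 4-OHT WT/FL, 0 and 0 in untreated FL/FL and 2 and 0 in untreated WT/FL libraries. The ratio of Mpo in 4-OHT FL/FL over 4-OHT WT/FL was 10.5 (1.49 to 456, counting error only), and 9 of the 10 counts came from 1 library. On day 4 Prtn3 was at 0 and 0 counts in 4-OHT FL/FL, 8 and 1 in 4-OHT WT/FL, 6 and 7 in untreated FL/FL and 6 and 13 in untreated WT/FL libraries. Prtn3 was thus at least 1.97-fold lower than in 4-OHT WT/FL and at least 3.38-fold lower than in untreated FL/FL cells (adjusted p = 0.116 and 0.046, neither called). Between untreated FL/FL and untreated WT/FL cells no member was called on any day by edgeR, beside 0%, 0%, 0% and 0.00655% of all genes. By that test 0, 2, 1 and 0 members had an unadjusted p below 0.05. DESeq2 called none on days 1 to 3, and on day 4 it gave no adjusted p for any member, so it could call none there.

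The 2 libraries of a group often differed as much as the groups. For S100a8 and S100a9 summed, the fold between the 2 libraries of a group had a median of 1.38 and a maximum of 3.02, for Ltf, Camp and Ngp summed 1.27 and 2.99. The largest gap of both was in 4-OHT WT/FL on day 3, with 13.4 and 4.44 CPM of calprotectin and 9.48 and 3.17 CPM of secondary granule transcripts. In 12 of 16 groups the library that was higher in one sum was higher in the other. The order followed the sample order of the deposit: S100a9 was higher in the first-listed library in all 8 WT/FL groups and in the second-listed library in all 8 FL/FL groups. Lcn2 was higher in the second-listed library of all 8 FL/FL groups and split 4 to 4 in WT/FL. The labels name no animal, culture or batch for these libraries, so what the first- and second-listed libraries of different groups share was not tested.

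**Figure D4:**
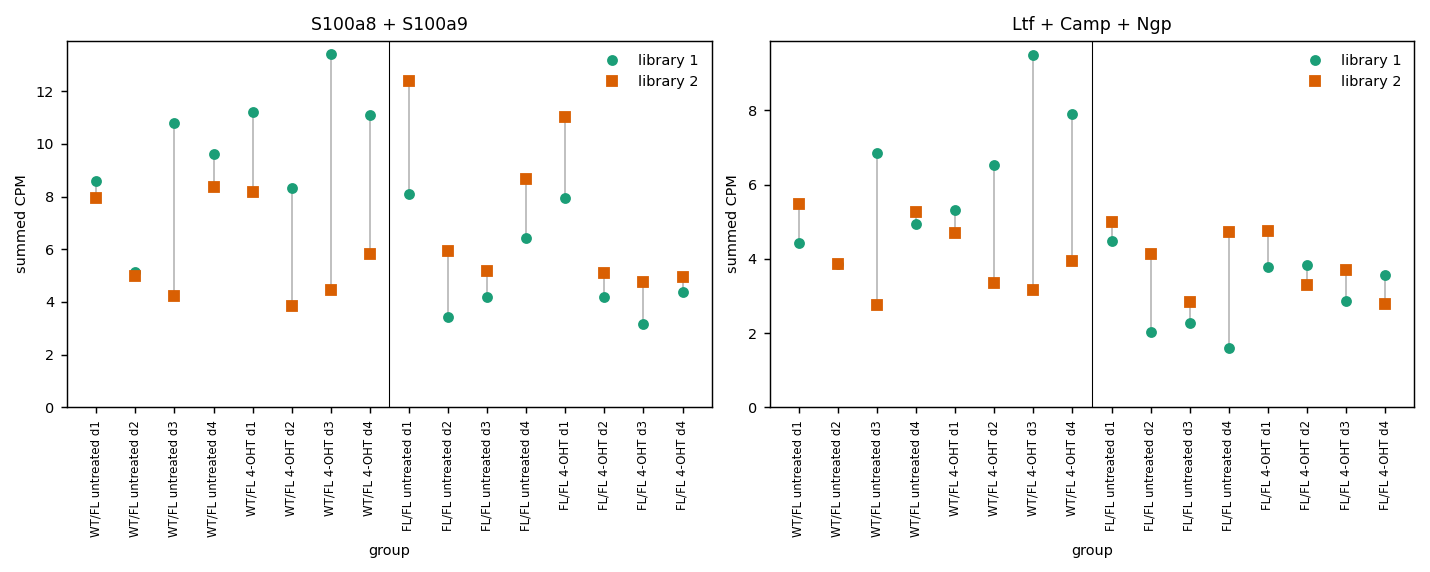
Summed CPM (vertical axis) of S100a8 and S100a9 (left) and of Ltf, Camp and Ngp (right) in the 2 libraries of each of 16 groups, library 1 as circles and library 2 as squares, with WT/FL groups left of the line. On the left library 1 is the higher in all 8 WT/FL groups and library 2 in all 8 FL/FL groups.

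Other transcripts of granulocytes and progenitors did not move as 1 block with the members. Of 30 further granule and neutrophil genes, 25 were tested, and 7 rose and 4 fell between day 1 and day 4 in 4-OHT FL/FL cells, 6 and 5 in 4-OHT WT/FL, 7 and 5 in untreated FL/FL and 6 and 6 in untreated WT/FL cells. Over all genes tested 7.54%, 6.91%, 7.02% and 6.75% were called higher in these arms, beside the shares called lower given above. The 25 genes had median log2 fold changes of 0.51, 0.66, 0.3 and 0.26, against 0, 0.01, 0.02 and 0.02 over all genes tested. In 4-OHT FL/FL cells the largest changes were the fall of Serpinb1a, an inhibitor of elastase and cathepsin G (log2 fold change -6.84, from 5.28 ± 0.344 to 0.0428 ± 0.0177 CPM), and of Chil3 (-3.77), beside a rise of Csf3r, the receptor for G-CSF (5.3, from 5.74 ± 0.921 to 226 ± 11.5 CPM). Mmp8, neutrophil collagenase, fell too (-3.39, from 25.9 ± 2.44 to 2.47 ± 0.0283 CPM). Of these 30 genes 10 stayed below 1 CPM in every library, among them the neutrophil markers Ly6g, Cxcr2, Retnlg and Stfa2l1.

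Of 12 progenitor genes, 10 were tested, and 3 fell and 1 rose over the same interval in 4-OHT FL/FL cells, with 2 and 1 in 4-OHT WT/FL, 3 and 1 in untreated FL/FL and 2 and 1 in untreated WT/FL cells. Cd34, a surface protein of stem and progenitor cells, fell from 15.9 ± 3.27 CPM on day 1 to 0.146 ± 0.0501 CPM on day 4 in 4-OHT FL/FL cells, and Ly6a rose from 6.38 ± 0.53 to 1350 ± 60.1 CPM. Myb (log2 fold change -7.78) and Gata2 (-4.29), transcription factors of progenitors, fell there too. Ly6a is also inducible by interferon. Of 7 proliferation genes 6 fell in every arm, and their summed level had a median of 2280 CPM on day 1 and 388 CPM on day 4, while 9, 8, 8 and 8 of 13 macrophage genes rose in the 4 arms. Whether progenitor carry-over, cycling or macrophage maturation takes part in the fall of the primary granule genes was not tested.

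Among 13 granulocyte and myeloid transcription factors, 12 were tested, with 2 rising and 2 falling in 4-OHT FL/FL cells, 2 and 0 in 4-OHT WT/FL, 3 and 1 in untreated FL/FL and 2 and 1 in untreated WT/FL cells. Irf8, a factor that favours monocytes over granulocytes, rose by 2.11 on the log2 scale and Egr1 by 2.89 in 4-OHT FL/FL cells, while Klf5 (-7.11, below 1 CPM in every library) and Gfi1b (-1.95) fell. Named after their values were seen, Cebpe, which drives secondary granule genes, was at 0.5 ± 0.147 CPM on day 1 and 0.154 ± 0.174 CPM on day 4 there. Spi1, which encodes PU.1, was 0.71 ± 0.0606 higher on day 4 (adjusted p = 3.88e-11), short of the fold limit.

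Genes with roles around the member proteins were compared on day 4 between 4-OHT FL/FL and 4-OHT WT/FL cells. Over all 15257 genes tested, 454 (2.98%) were called there, 252 higher and 202 lower. Of 10 receptors and binding partners, 9 were tested and 1 was higher, Cd69 (2.39), none lower. Of 8 protease inhibitors, 4 were tested and 1 was higher, Serpina3g (1.79). Of 12 inflammatory genes often induced with Lcn2, 1 was called, Nos2, the inducible nitric oxide synthase (2.92, adjusted p = 0.00054). Lcn2 itself was not called between these genotypes on day 4. It was called on day 3 in another comparison, 4-OHT against untreated FL/FL. There Nos2 was at 4.01 ± 0.248 CPM in 4-OHT FL/FL and 0.943 ± 0.117 CPM in untreated FL/FL cells. Whether Nos2 and Lcn2 respond together was not tested. All 10 genes of an interferon-inducible list were higher in 4-OHT FL/FL than in untreated FL/FL cells on days 3 and 4, with median log2 fold changes of 1.67 and 3.11. The summed level of this list was apart on day 2 too, when Lcn2 was not called. It was then 7080 and 7200 CPM in 4-OHT FL/FL and 1590 and 1380 CPM in untreated FL/FL libraries. Of the 25 tested granule and neutrophil genes that are no members, 1 was higher and 2 lower in 4-OHT FL/FL against 4-OHT WT/FL cells on day 4. Mmp9, the gelatinase of tertiary granules, was the lower by -2.77 (7.66 ± 0.0332 against 52.4 ± 3.93 CPM), Cd177 was lower by -4.46 and Mmp25 was higher by 1.72. Of 8 monocyte genes 3 were lower, among them F13a1 (-2.77).

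Lists of markers of other marrow cells differed in level. The summed level of 7 erythroid genes did not pass 0.205 CPM and that of 6 mast cell and basophil genes did not pass 0.198 CPM in any library. Of 6 eosinophil genes 5 stayed below 1 CPM throughout, with Ccr3 above. Of the T cell genes 5 of 6 and of the B cell genes 4 of 6 stayed below 1 CPM, with Ighm at 91.4 ± 8.69 CPM in 4-OHT FL/FL cells on day 4. The B cell sum lay between 29.4 and 225 CPM over all libraries and the megakaryocyte sum between 54.7 and 198 CPM, both above the summed level of the members. The T cell sum went from a median of 0.517 CPM on day 1 to 32.2 CPM on day 4, and Cd4 was the 1 gene of that list above 1 CPM in any library. Dendritic cell and stromal lists had sums of 1.25 to 9.78 and 0.787 to 4.15 CPM. Cd4, Ccr3 and Ighm were picked with their values known. The part of these cell types in the results was not tested.

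Per kilobase of exon, S100a8 had the highest mean level of the members on day 1 (4.85 ± 0.873 CPM per kb, SD over 8 libraries). S100a9 (3.64 ± 0.824), Lcn2 (1.81 ± 0.456) and Ngp (1.76 ± 0.265) followed. The SD ranges of S100a8 and S100a9 overlapped, as did those of Lcn2 and Ngp. That SD is a spread between libraries pooled over 4 arms, while all members were measured in the same libraries. It therefore does not test the order of genes within a library. Ltf (0.596 ± 0.0881), Mpo (0.381 ± 0.16), Prtn3 (0.301 ± 0.188), Camp (0.243 ± 0.124), Ctsg (0.228 ± 0.136) and Elane (0.205 ± 0.0676) came next. The SD ranges of the last 5 overlapped those of their neighbours. On day 4 the order of means was S100a9 (3.49 ± 1.01), S100a8 (3.0 ± 1.24), Ngp (1.44 ± 0.704), Lcn2 (1.05 ± 0.509) and Ltf (0.626 ± 0.293). The SD range of each overlapped that of the next, with the same limit. This order pools 4 arms. In 4-OHT FL/FL cells Lcn2 came second (1.6 and 1.92 CPM per kb on day 4), between S100a9 (2.02 and 2.75) and S100a8 (1.44 and 1.83), whose libraries overlapped those of Lcn2.

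The genes most like each member over the 32 libraries were named by Pearson's r of log2 CPM, as a description in which all libraries share the time course. Mpo was most like Calcr (r = 0.936), Ctsg like Agap2 (0.939), Elane like Afap1 (0.841) and Prtn3 like Dubr (0.745). Lcn2 was most like Skil (0.821), S100a8 like Sipa1l2 (0.817), S100a9 like Chi3l1 (0.753), Ltf like Xlr4b (0.768), Ngp like Gm37758 (0.618) and Camp like 9030624G23Rik (0.611).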

How the data were processed

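Total RNA of BMDMs was sequenced in 32 libraries. Per the labels the authors used FastQC 11.9, Salmon (version not given in the sources used here) and DESeq2 1.32 with GRCm39. They deposited 1 table of estimated counts per gene, whole numbers that were not normalized. All 32 columns were mapped to samples. Groups were formed from genotype, treatment and day as labelled, and replicate numbers name the deposit order and pair nothing. Gene names and coordinates came from the GENCODE annotation of GRCm39, which matched 51048 of 54281 identifiers. Rows without a match held 0.32% of counts.

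Counts were fitted as deposited with edgeR 4.0.16 (R 4.3.3, TMM, robust quasi-likelihood test), with 1 mean for each of 16 groups and 16 residual degrees of freedom. Genes passed a filter at a minimum count of 10, which left 15257. Without the filter 26767 genes were fitted, and a smaller p at nearly the same fold then reflects a smaller estimated spread. P-values were adjusted by Benjamini-Hochberg over all of these, and a call needed an adjusted p under 0.01 together with a log2 fold change beyond 1.5 either way. DESeq2 1.42.0, RLE factors or library totals in place of TMM, no filter, a limit of 0.05 without a fold, fits to the libraries compared alone and leaving out each library were the alternatives. In some comparisons DESeq2 gave no adjusted p for some or all members, and it could make no call on these. On data simulated for 4-OHT FL/FL against 4-OHT WT/FL on day 2, with 14345 genes, 155 of 193 tested genes changed by 2.5 (log2) were recovered and 1 unchanged gene was called. The changed genes were drawn at random from all genes fitted, so this recovery does not describe members at few counts. Totals of 35120505 to 63760884 counts set the precision, and 95% exact Poisson intervals and floors of 3 counts cover counting error only. A fold against a group at 0 was computed against that floor over both libraries.

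The members, the gene lists and the rule for named genes (every member, of each list at most 4 called genes with the largest changes, and the gene most like each member) were chosen with earlier results of these data known.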

Additional observations from a re-analysis of the deposited data

Results flagged for a closer look

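Lcn2 gave an interaction of genotype and 4-OHT at an unadjusted p of 0.0041 on day 3 and 0.00777 on day 4. It was 1.44 on day 3 and 1.34 on day 4 (log2, edgeR quasi-likelihood test, adjusted p = 0.047 and 0.0487), so neither passed the limit of 0.01. Without single libraries the adjusted p ran from 0.0517 to 0.181 on day 3 and from 0.0157 to 0.267 on day 4. Both 4-OHT FL/FL libraries lay above both untreated FL/FL libraries on each of these days.

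Camp moved in opposite directions with 4-OHT on day 4, by a log2 fold change of 1.73 in FL/FL cells and -1.08 in WT/FL cells (edgeR unadjusted p = 0.181 and 0.372, neither past the limit after adjustment). Both 4-OHT libraries lay above both untreated libraries in FL/FL cells and below both in WT/FL cells, on 0 to 11 counts per library. The interaction for Camp was 2.80 (adjusted p = 0.326), which did not pass the limit, and the opposite directions themselves were not tested otherwise.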

How the results depend on the processing

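No paired analysis was possible because the labels give no replicate number, animal or batch. Of the counts of called members, 352 values under the alternatives stayed within 1.5 times the main count and 52 did not. Of the values for single called genes, 108 stayed called and 32 did not, and none changed sign. With library totals alone, 4 members were called in day 4 against day 1 of 4-OHT FL/FL. With no filter on low counts, 1 was called in 4-OHT FL/FL against 4-OHT WT/FL on day 3, untreated FL/FL against untreated WT/FL on day 2, 4-OHT against untreated FL/FL on day 2, day 2 against day 1 in 4-OHT FL/FL and 4-OHT WT/FL, day 3 against day 2 in 4-OHT WT/FL and the interaction on day 2, 2 in 4-OHT against untreated FL/FL on day 4, and 4 in day 2 against day 1 of untreated FL/FL. At an adjusted p below 0.05 with no fold limit, 1 was called in 4-OHT FL/FL against 4-OHT WT/FL on day 3, day 2 against day 1 in untreated WT/FL, day 3 against day 2 in 4-OHT WT/FL and the interaction on days 3 and 4. The same limit gave 2 in 4-OHT against untreated FL/FL on day 4, day 2 against day 1 in 4-OHT WT/FL and day 3 against day 2 in 4-OHT FL/FL and untreated WT/FL, 3 in day 2 against day 1 of 4-OHT FL/FL, 4 in day 2 against day 1 of untreated FL/FL and day 4 against day 1 of 4-OHT FL/FL and untreated WT/FL, and 5 in day 4 against day 1 of 4-OHT WT/FL. DESeq2 called 1 in day 2 against day 1 of 4-OHT FL/FL. Fits to the compared libraries alone called 3, 1 and 1 in day 2 against day 1 of 4-OHT FL/FL, 4-OHT WT/FL and untreated FL/FL, 0 in day 3 against day 2 and 1 in day 4 against day 1 of untreated WT/FL. Leaving out single libraries gave 0 to 1 in 4-OHT against untreated FL/FL on day 4, in day 2 against day 1 of 4-OHT FL/FL and 4-OHT WT/FL and in day 3 against day 2 of 4-OHT FL/FL and untreated WT/FL, 0 to 2 in day 2 against day 1 of untreated FL/FL, 1 to 2 in day 4 against day 1 of 4-OHT FL/FL, untreated FL/FL and untreated WT/FL, and 1 to 1 in that of 4-OHT WT/FL. In those fits the lone library of a group was assumed to vary like the other groups. The cause was not tested. Depth limits Mpo, Elane, Prtn3, Ctsg and Camp, which lay at few or 0 counts in many libraries.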
